A study of Mus musculus with 6 samples.

Results

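The cells described here are 91 of 19230 single cells from the draining lymph nodes of 3 Pik3cg KO mice (KO1 to KO3) and 3 WT mice (WT1 to WT3). They were chosen as cells with at least 2 of the 7 genes Csf1r, C1qa, C1qb, Lyz2, Cd68, Adgre1 and Cd14, and with no unique molecular identifier (UMI, a counted RNA molecule) of Cd79a, Cd3d, Cd3e, Cd3g or Siglech. Cells with 2 or more of the resident dendritic cell genes Flt3, Xcr1, Clec9a, Cd209a and Zbtb46, or of the migratory dendritic cell genes Fscn1, Ccl22, Cacnb3, Ccl17 and Socs2, were left out. Such a choice is meant to hold macrophages and monocytes. Because most cells carried Lyz2 and Csf1r while C1q genes were rare, they are called Csf1r Lyz2 cells below.

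All mice, KO and WT, had been immunized 3 times with NP-Ova in alum, and the nodes were taken at day 34. Pik3cg encodes the catalytic subunit of PI3K gamma, and the labels give neither the deleted stretch of the gene nor the mice's strain or age. The KO label does not restrict the deletion to a cell type. Before loading, 70% of the mixture was a fraction from which non-B cells and IgD-bearing cells had been depleted, and 30% was untouched. The proportion reached in each mouse is not recorded. Each mouse had its own antibody hashtag, and the pooled cells were run on 2 lanes, which held 46 and 45 of the Csf1r Lyz2 cells. KO1, KO2 and KO3 gave 7, 12 and 5 of them (24 in all), and WT1, WT2 and WT3 gave 27, 15 and 25 (67 in all).

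Monocytes are blood-borne phagocytes that depend on the receptor for colony-stimulating factor 1. The classical kind carries Ly6C and the chemokine receptor CCR2 and enters inflamed tissue. The non-classical kind patrols vessels and depends on the factor NR4A1. In lymph nodes, resident macrophages line the sinuses, take up dying germinal centre B cells and clear debris in the T zone, and many of them make the complement component C1q. PI3K gamma is found mainly in leukocytes and acts downstream of G-protein-coupled receptors such as chemokine receptors.

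The label was first set against marker genes. Of the genes the choice used, Lyz2, which encodes lysozyme, was detected in 88 of the 91 cells, Csf1r in 79, Cd68 in 48 and Adgre1 (F4/80) in 22. Cd14 was detected in 5 cells, C1qa in 4 and C1qb in 3. These values chose the cells and are given as a description only. The 4 genes that name the cell type were therefore unequal, with C1qa nearly absent.

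Monocyte genes were widespread among genes that the choice did not use. Plac8 was detected in 82 cells, Ly6c2 in 60, Ccr2 in 57, Ms4a4c in 57, Hp (haptoglobin) in 46, F13a1 (coagulation factor XIII, A chain) in 37, Fn1 (fibronectin) in 34 and Chil3 in 22. All 10 genes of the monocyte list were found in at least 1 cell, and 80 cells carried at least 2 of them. Ly6c2 is also a T cell gene and was present in 19.7% of T cells, whereas F13a1 was present in 0.0542% and Hp in 0% of 3691 T cells. Ly6c2 has a near-identical neighbour, Ly6c1, so the split of reads between the pair is uncertain.

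Genes of non-classical monocytes were also present. Adgre4 was detected in 43 cells, Ace (angiotensin-converting enzyme) in 36, Ear2 in 20 and Treml4 in 12, against 0% of T cells for Adgre4, Ace and Ear2. Of the 91 cells, 66 carried at least 2 genes of that list, 61 met both this gate and the monocyte gate, and 6 met neither. Spn, Itgal and Pglyrp1 of that list are T cell genes as well, so 11.9% of T cells also met the non-classical gate, and 19.5% of T cells met the monocyte gate.

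Markers particular to lymph node macrophages were rarely detected. Of the 10 sinus and medullary macrophage genes, 5 had no UMI in any of the 91 cells (Marco, Cd209b, Cd5l, Clec4f and Lyve1), and the sialoadhesin gene Siglec1 was seen in 2 cells. The summed level of that list ran from 0.0 to 78.4 CPM (UMIs scaled to 1000000 per mouse) in the KO mice and from 13.8 to 46.6 CPM in the WT mice. In the list for tingible body and T zone macrophages, Mertk and Slc40a1 were at 0, Timd4 was in 1 cell and C1qc in 2. Axl was in more cells than these, though in under 20%. Apoe (60 cells) and Cx3cr1 (59 cells) of that list are also expressed by monocytes. Of its 10 genes 8 were detected, and these 2 alone were in at least 20% of the cells. With both included, the list summed to 1158 to 4547 CPM in the KO mice and 1318 to 1631 CPM in the WT mice, against 21.0 CPM in T cells. A count of 0 among 91 cells allows a share of up to 3.30% for cells with a UMI and sets no limit on cells that express a gene at a low level. Detection depends on depth, and after thinning to 1000 UMIs even Csf1r was in 43.5% of the cells in place of 86.8%. At this depth the monocyte side of the label was thus detected widely. Apart from Apoe and Cx3cr1, the genes of the node macrophage lists were each detected in under 20% of the cells or in none.

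**Figure D1:**
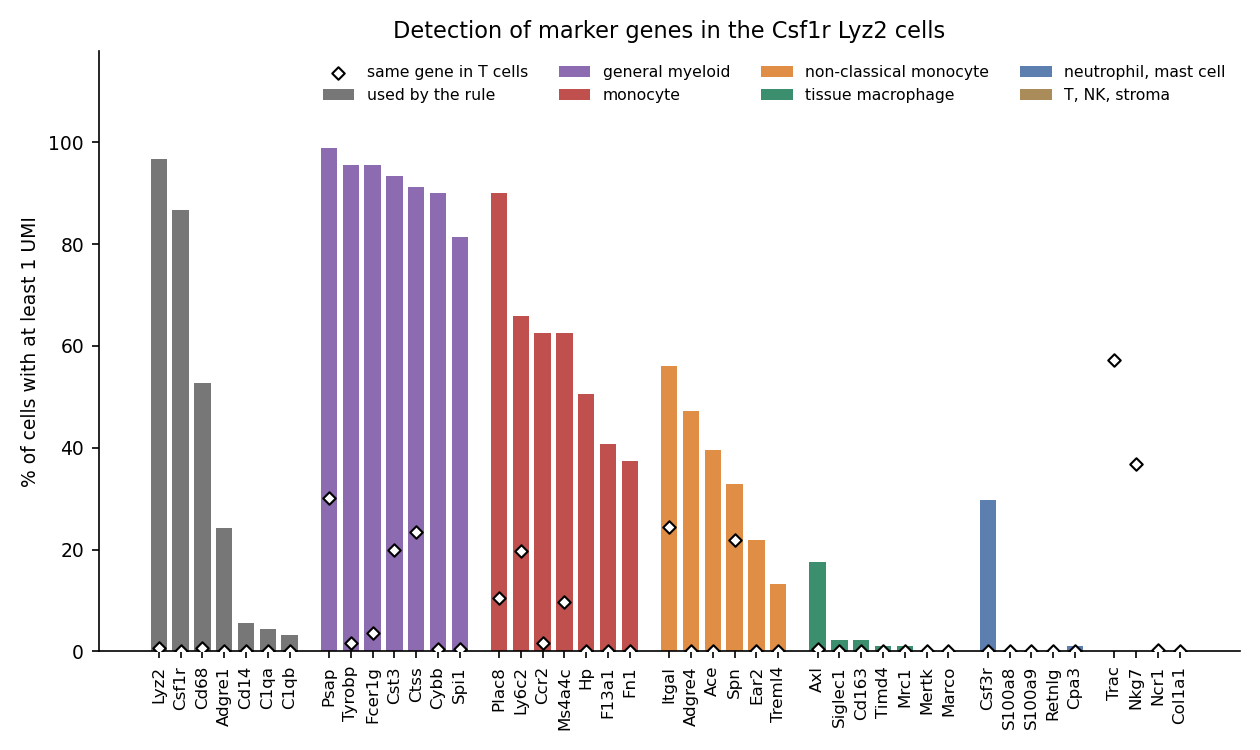
Share of the 91 Csf1r Lyz2 cells with at least 1 UMI of each gene (bars, in percent), grouped by the list the gene belongs to, with the share of 3691 T cells with the same gene (white diamonds). Monocyte genes such as Plac8 (82 cells) and Ly6c2 (60 cells) stand high. Of the tissue macrophage genes, Siglec1 (2 cells) and Marco (0 cells) are at or near 0, whereas Axl stands higher than these.

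Genes of other cell types were absent for some lists and present in part for others. Of the 12 neutrophil genes, 8 had no UMI, among them S100a8 and S100a9, while Csf3r, which monocytes share, was in 27 cells and Mmp8 in 7. All 6 eosinophil genes were at 0. Of the 11 T cell genes, 10 had no UMI, and Cd4, which some myeloid cells carry, was in 1 cell. Cd3d, Cd3e and Cd3g of that list were at 0 by the choice of cells, whereas Trac, Trbc1, Trbc2, Cd8a, Lck, Cd5 and Il7r were not used by it. Nkg7 and Ncr1 of natural killer cells were at 0. Ms4a1 and Ighd of B cells were at 0 too. Ighm had a UMI in 31 cells (34.1%), a share close to the 32.5% of T cells, which do not make it. When each cell was thinned to 1000 UMIs, the share was 8.24% in Csf1r Lyz2 cells and 15.6% in T cells, so Ighm did not exceed the share in T cells. Of the 11 resident dendritic cell genes, whose number in a cell the choice limits, 10 were detected, with Batf3 in 14 cells and Flt3 and Cd209a in 9 each, and the list summed to 399 ± 159 CPM in KO and 272 ± 55.7 CPM in WT mice (SD, n = 3 each). Of 9 plasmacytoid dendritic cell genes, among which Siglech was at 0 by the choice, 4 were detected, chiefly the interferon-inducible Bst2 (51 cells). The list summed to 630 ± 320 CPM in KO and 519 ± 138 CPM in WT mice (SD, n = 3 each). Of 7 genes of antibody-secreting cells, 5 were detected, with the transcription factor gene Xbp1 in 28 cells and Jchain in 1, and the list summed to 151 ± 64.3 CPM in KO and 125 ± 14.8 CPM in WT mice (SD, n = 3 each). The part of these genes in the results was not tested.

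The Csf1r Lyz2 cells had a median of 4081 UMIs and 1655 genes, against 2534 UMIs in T cells, 2114 UMIs in B cells and 5407 UMIs in 29 resident dendritic cells. None of the 91 barcode sequences occurred in the other lane, although 134 sequences occurred in both lanes among the kept cells. Just inside the threshold, 42 cells had exactly 2 of the 7 genes, and Tyrobp, a myeloid adaptor gene, was in 39 of them. Just outside, 19 cells had exactly 1, and Tyrobp was in 11. Of 130 kept cells with at least 2 of the 7 genes, 21 were left out for a Cd79a UMI, 9 for a Cd3 UMI and 9 by dendritic cell genes or Siglech alone.

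Promoters of 3 genes that mark the cells are shown because they bear a letter match to the core motif of PU.1, the factor encoded by Spi1 that myeloid cells depend on. Spi1 itself was detected in 74 of the 91 cells, at 514 ± 41.8 CPM in KO mice and 491 ± 24.6 CPM in WT mice (SD, n = 3 each). The sequences are RefSeq's for GRCm38.p6, from 250 bases before to 50 bases after the start of the gene, read 5′ to 3′ on the gene's strand. Capitals mark GAGGAAGT or, on the opposite strand, its reverse complement. Ly6c2 (chr15:75111922-75112221, minus strand) and F13a1 (chr13:37049164-37049463, minus strand) mark classical monocytes, and Adgre4 (chr17:55749734-55750033, plus strand) marks non-classical monocytes.
Ly6c2: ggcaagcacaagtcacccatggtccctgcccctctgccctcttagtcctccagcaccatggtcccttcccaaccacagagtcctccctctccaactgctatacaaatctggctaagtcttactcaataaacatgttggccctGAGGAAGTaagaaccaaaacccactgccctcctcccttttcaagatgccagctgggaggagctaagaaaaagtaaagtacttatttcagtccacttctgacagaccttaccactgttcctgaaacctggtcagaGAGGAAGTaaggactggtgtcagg
F13a1: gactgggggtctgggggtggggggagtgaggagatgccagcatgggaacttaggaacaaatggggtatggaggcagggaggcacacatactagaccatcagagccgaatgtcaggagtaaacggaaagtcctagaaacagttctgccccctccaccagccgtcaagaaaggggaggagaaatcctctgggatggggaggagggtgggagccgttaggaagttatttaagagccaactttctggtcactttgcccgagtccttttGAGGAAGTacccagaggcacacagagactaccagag
Adgre4: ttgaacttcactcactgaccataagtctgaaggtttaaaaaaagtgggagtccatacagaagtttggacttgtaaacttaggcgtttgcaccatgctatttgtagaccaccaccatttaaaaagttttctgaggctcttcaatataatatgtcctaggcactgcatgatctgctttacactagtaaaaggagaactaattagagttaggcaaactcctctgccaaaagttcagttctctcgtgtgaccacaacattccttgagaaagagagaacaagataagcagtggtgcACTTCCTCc
The Ly6c2 window held 2 copies and each of the others 1. Among the 26 leading genes below that matched a RefSeq promoter, 2 (7.69%) held GAGGAAGT on either strand, against 3.69% of 27025 genes. The shorter form GAGGAA, which GAGGAAGT contains, was in 10 of the 26 (38.5%), against 31.3% of all genes. TTGCNNAA, a form of the C/EBP motif, was in 5 (19.2%), against 12.2%. These matches are descriptions of letters in the windows and not binding sites.

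The 30 genes that stood highest in the Csf1r Lyz2 cells over all other cells, outside the 7 chosen genes, were led by Hp, Ifitm6, Plcb1, F13a1 and Ccl6. Since the cells were picked by their RNA, no test was applied. Hp averaged 407 ± 123 CPM in KO mice and 311 ± 108 CPM in WT mice (SD, n = 3 each) and was detected in 46 cells. Of the 29 resident dendritic cells, Hp and Plcb1 were in 0, F13a1 in 1, Ccl6 in 5 and Ifitm6 in 12. Ifitm2 and Ifitm3, also among the 30, were in 17 and 23 of them, so several leading genes are shared with those cells. Ccl6, a CC chemokine of myeloid cells, was in 59 cells. Clec4a3 and Clec4a1, C-type lectin receptors, were in 65 and 48 cells. Ifitm3, an interferon-induced membrane protein that restricts viruses, was in 84 cells and ran from 4352 to 6695 CPM over the 6 mice. Tgfbi, an extracellular matrix protein, was in 53 cells and Emilin2 in 48. C3, the central complement component, was in 45. The Clec4a, Ifitm, Klra and Sirpb1 families hold near-identical members, so reads may be split among them.

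Most general myeloid genes were found in most cells. Of the 24 genes in that list, all were detected, 23 of them in at least 20% of the cells. The signalling adaptors Tyrobp and Fcer1g were each in 87 cells, Cybb, the catalytic subunit of the phagocyte oxidase, was in 82 and Ctss, cathepsin S, in 83. The summed level of the list was 23203 ± 2168 CPM in KO mice and 28316 ± 3467 CPM in WT mice (SD, n = 3 each), against 927 CPM in T cells and 2232 CPM in B cells.

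Genes for the uptake and breakdown of material divided by step. All 22 lysosomal genes were detected, with Psap (prosaposin) in 90 cells, Npc2 in 80, Ctsb in 70 and Lamp1 in 66. Of 17 genes for the uptake of dying cells, 12 were detected and 2 of them in most cells, the endocytic receptor Lrp1 (52 cells) and Elmo1 (54 cells). Elmo1 was also at 328 CPM in T cells, so it does not mark the Csf1r Lyz2 cells. Mertk, Tyro3, Gas6, Stab1 and Stab2 were at 0, and Axl was in 16 cells. Scavenger receptors were sparse as well, with Msr1 in 19 cells, Mrc1 in 1 and Marco at 0.

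Receptors for antibody, microbes and cytokines followed. The inhibitory Fc receptor gene Fcgr2b was in 46 cells, the activating Fcgr3 in 27 and Fcgr1 in 25, and Fcgr4 in 3. Of the Toll-like receptors, Tlr7 was in 22 cells and Tlr2 and Tlr13 in 21 each, whereas Tlr3 and Tlr4 were at 0. Unc93b1, which carries endosomal Toll-like receptors to their compartment, was in 55 cells. Ifngr1, the interferon gamma receptor chain, was in 66 cells, Il10ra in 55 and Csf2ra in 46.

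Antigen presentation genes varied widely among the mice. Cd74, the invariant chain, was in 75 cells at 3851, 8461 and 1803 CPM in KO1, KO2 and KO3, against 5179, 8745 and 6511 CPM in WT1, WT2 and WT3. H2-Eb1, a class II beta chain, was in 35 cells at 554, 2110 and 157 CPM in the KO mice and 1235, 2066 and 2481 CPM in the WT mice. KO1 and KO3 lay below every WT mouse for both genes, and KO2 lay within the WT range. A Cd74 UMI was also in 16.3% of T cells, and after thinning to 1000 UMIs it was in 63.5% of Csf1r Lyz2 cells and 7.39% of T cells. Ciita, the class II transactivator, was in 23 cells and Cd86 in 28.

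Among the genes of secreted factors, some were widespread and others at 0. Tnfsf13, which encodes APRIL, a survival factor of plasma cells, was in 37 cells at 199 ± 105 CPM in KO mice and 161 ± 41.9 CPM in WT mice (SD, n = 3 each). Tnfsf13b, which encodes BAFF, was in 1 cell. Tgfb1 was in 66 cells and Il1b in 20, and Il1a, Il6, Il10, Nos2 and Arg1 were at 0. Of 18 chemokines 14 were detected, with Ccl6 in 59 cells. Ccl9 was in 33 cells, Cxcl10 in 16, Ccl2 in 14 and Ccl4 in 7, and Pf4 was at 0. Cycling genes were rare, with Mki67 in 3 cells, Top2a in 2 and Cdk1 at 0.

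Transcription factors of the monocyte line were common. Cebpb was in 74 cells, Zeb2 in 75, Klf2 in 56 and Klf4 in 49. Nr1h3 (LXR alpha) was in 6 cells and Spic, the factor of iron-recycling macrophages, in 2. Nr4a1, which non-classical monocytes need, was in 42 cells, but it is also induced when tissue is dissociated. The other early-response genes Fos (69 cells), Zfp36 (69) and Jun (65) were detected in most cells too.

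The cells were not uniform. F13a1 and Fn1 were found together in 27 cells, so 73.0% of F13a1-positive cells had Fn1, against 13% of the remaining cells. Ear2 was in 8.11% of F13a1-positive cells and 31.5% of the others, and Adgre4 in 27.0% and 61.1%. Chil3 and Hp did not follow F13a1 in this: Ear2 was in 27.3% of Chil3-positive cells and 20.3% of the others, and in 26.1% of Hp-positive cells and 17.8% of the others. By these genes, in sets drawn after the values were seen, 40 cells had F13a1, Fn1 or Chil3 only, 16 had Ear2, Treml4, Eno3 or Cd300e only, 13 had genes of both kinds and 22 had neither. Median UMI counts were 4734, 3237, 5065 and 3438 in those sets, so depth differed along with the genes.

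By share of cells, some other genes followed the same division and others did not, described without a test. Ly6c2 was in 85.0% of the F13a1, Fn1 or Chil3 set and in 37.5% of the Ear2, Treml4, Eno3 or Cd300e set. Hp was in 70.0% and 43.8%. In the other direction, Ace was in 30.0% of the first set and 81.3% of the second, Adgre4 in 30.0% and 75%, and Pglyrp1 in 12.5% and 56.3%. Itgal of the non-classical list was in 60.0% and 62.5%, Nr4a1 in 57.5% and 50%, and the fractalkine receptor gene Cx3cr1 in 75% and 56.3%. By share of cells these did not divide in that way. Their pooled levels, which are scaled for depth, were all higher in the second set. Itgal had 239 CPM in the first set and 436 CPM in the second, Nr4a1 207 and 303, and Cx3cr1 377 and 473. The 22 cells with neither kind of gene had the highest pooled level of Cd74 (12808 CPM) and the lowest of Lyz2 (5064 CPM) among the sets. In mouse order, the F13a1, Fn1 or Chil3 set held 6, 8 and 3 KO cells and 11, 4 and 8 WT cells. The Ear2, Treml4, Eno3 or Cd300e set held 0, 2 and 0 KO cells and 4, 2 and 8 WT cells. Cells with both kinds numbered 0, 0 and 0 in the KO mice and 5, 5 and 3 in the WT mice. The KO mice gave 24 of the 91 cells and the WT mice 67, and a genotype difference in these sets was not tested.

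**Figure D2:**
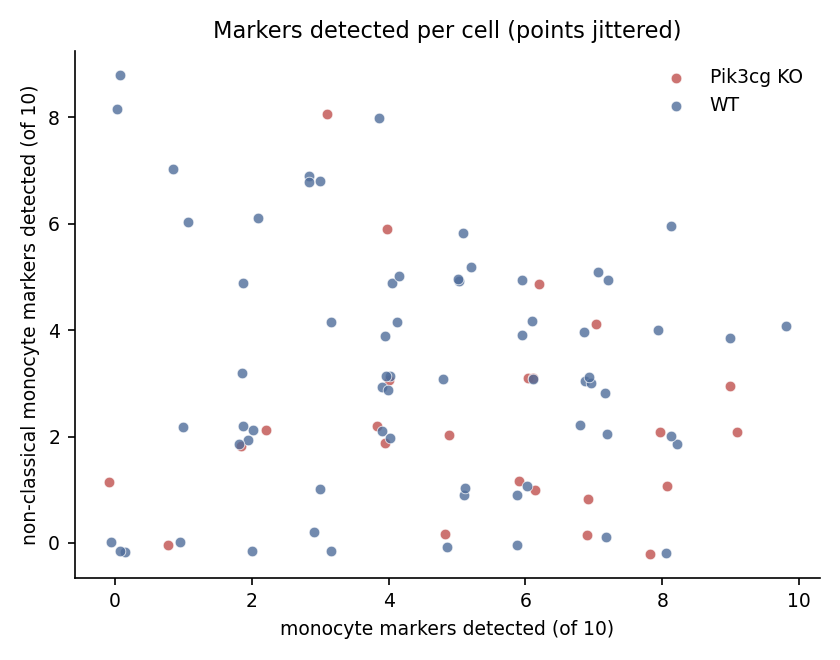
Each point is 1 of the 91 Csf1r Lyz2 cells, placed by how many of 10 monocyte genes (x axis) and 10 non-classical monocyte genes (y axis) had a UMI in it, in KO and WT mice; points are jittered. Per cell the medians were 5 and 3 genes, 58 cells had more monocyte genes, 19 had fewer and 14 as many, and the points form no separate clouds.

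The share of Csf1r Lyz2 cells was compared between KO and WT mice. They made up 0.247%, 0.296% and 0.197% of single-hashtag cells in KO1, KO2 and KO3, against 0.837%, 0.501% and 0.697% in WT1, WT2 and WT3. The genotypes did not overlap. The means were 0.247% ± 0.0497 in KO mice and 0.678% ± 0.169 in WT mice (SD, n = 3 each), a KO to WT ratio of 0.364. The two-sided exact permutation test gave p = 0.1, the smallest that 3 against 3 mice allow (Benjamini-Hochberg p = 0.15 over 6 shares), so the difference does not pass a threshold of 0.05 in this design. Exact binomial 95% intervals, which cover counting error only, ran from 0.153% to 0.517% in KO2, the highest KO mouse, and from 0.281% to 0.825% in WT2, the lowest WT mouse.

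The denominator bears on this share, because lymphocytes differed as well. T cells were 13.9% ± 0.572 of KO and 24.5% ± 6.37 of WT cells, and B cells 71.2% ± 2.64 of KO and 59.6% ± 6.33 of WT cells (SD, n = 3 each), with no overlap for either. Among cells without Cd79a, Cd3d, Cd3e and Cd3g UMIs, the Csf1r Lyz2 cells were 4.46%, 5.83% and 2.94% in the KO mice and 10.2%, 7.58% and 11.9% in the WT mice (two-sided exact permutation p = 0.1). Here too the genotypes did not overlap. Per 100 T cells there were 1.86, 2.13 and 1.36 Csf1r Lyz2 cells in the KO mice and 4.33, 1.58 and 3.08 in the WT mice (two-sided exact permutation p = 0.3), and WT2 lay below KO1 and KO2. Other cells without B or T cell genes were 5.53% ± 0.873 of KO and 6.22% ± 1.11 of WT cells (SD, n = 3 each; two-sided exact permutation p = 0.6). A lower number of the cells in the node and a lower share of untouched cells in a mouse's mixture cannot be told apart.

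**Figure D3:**
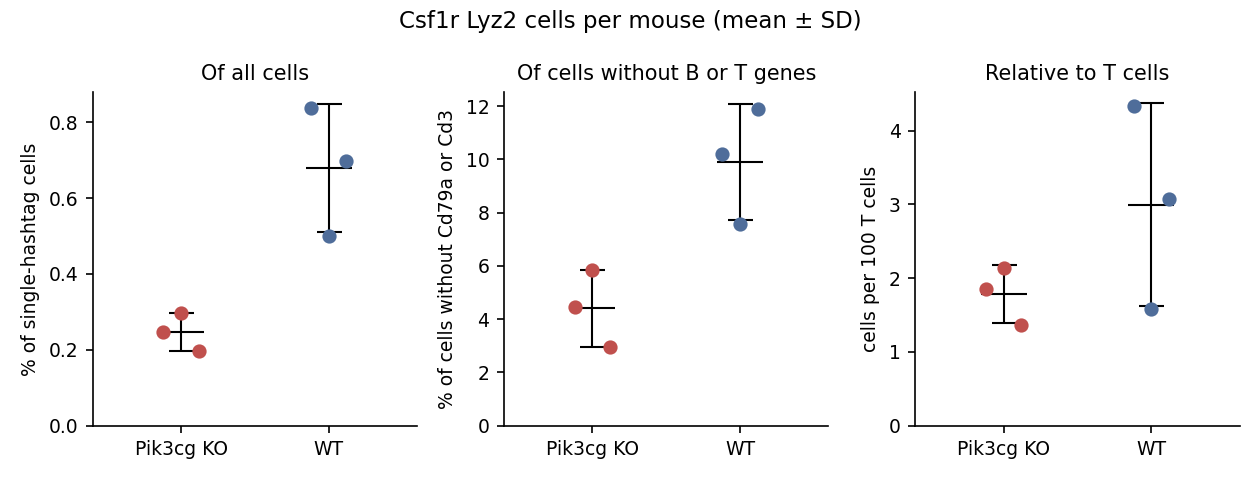
Csf1r Lyz2 cells in each mouse (points; KO left, WT right) as a percentage of all single-hashtag cells, as a percentage of cells without Cd79a or Cd3 UMIs, and per 100 T cells; horizontal marks are means and bars SD (n = 3 each). The genotypes are apart in the first 2 panels and overlap in the panel per 100 T cells, where WT2 has 1.58.

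The kinds of cell within the group were compared by gates. Cells with a C1q UMI were 0, 0 and 2 in the KO mice and 3, 0 and 2 in the WT mice, a description only, since C1qa and C1qb were among the genes that chose the cells. None of the monocyte, non-classical and neutrophil gates reached the smallest p of 0.1 that the design allows. Cells with at least 2 monocyte genes were 86.7% ± 23.1 of the group in KO and 88.4% ± 10.4 in WT mice (SD, n = 3 each; two-sided exact permutation p = 1.0). Cells with at least 2 non-classical genes were 57.1%, 83.3% and 20% in the KO mice and 74.1%, 80.0% and 76.0% in the WT mice (two-sided exact permutation p = 0.4). KO2 was above all WT mice in that gate, and KO3, at 20%, rested on 5 cells.

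Pik3cg, the targeted gene (ENSMUSG00000020573, GRCm38 chromosome 12, 32173473 to 32208659, minus strand), was read in every mouse. The Csf1r Lyz2 cells held 0, 1 and 0 Pik3cg UMIs in KO1, KO2 and KO3, against 8, 3 and 13 in WT1, WT2 and WT3. This corresponds to 0.0, 21.5 and 0.0 CPM in the KO mice and 66.3, 41.3 and 151 CPM in the WT mice. All 3 KO mice were under the lowest WT mouse (two-sided exact permutation p = 0.1, the smallest possible). Among the 855 genes tested below, 6.55% showed the same order. The gene itself was too low to enter that fit.

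Pooled over mice, 1 of 24 KO cells (4.17%) and 20 of 67 WT cells (29.9%) had a Pik3cg UMI, at median depths of 3835 UMIs in KO and 4084 UMIs in WT cells. The KO to WT ratio of pooled levels was 0.118 (exact 95% interval for counting error 0.00286 to 0.721). Counts were thin in single mice: a count of 0 allows up to 75.5 CPM in KO1 and 235 CPM in KO3, which covers the WT1 and WT2 values in both. In T cells Pik3cg was still counted in KO mice, at 24.4 ± 7.90 CPM against 20.6 ± 3.24 CPM in WT mice (SD, n = 3 each; two-sided exact permutation p = 0.5). B cells had 29.8 ± 1.70 CPM in KO and 38.9 ± 5.40 CPM in WT mice (SD, n = 3 each; two-sided exact permutation p = 0.1). Other cells without B or T cell genes had 21.5 ± 8.66 CPM in KO and 40.2 ± 4.81 CPM in WT mice (SD, n = 3 each; two-sided exact permutation p = 0.1).

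The Pik3cg level in Csf1r Lyz2 cells minus that in T cells was -24.4, -10.8 and -16.5 CPM in the KO mice and 49.5, 19.0 and 129 CPM in the WT mice. The genotypes did not overlap (two-sided exact permutation p = 0.1, the smallest possible; Benjamini-Hochberg p = 0.12 over 6 comparisons). Against B cells they did not overlap either (two-sided exact permutation p = 0.1). Neither passes a threshold of 0.05, and the counts of 0 in KO1 and KO3 allow levels above those of T cells. Whether the genotype difference itself differed between these kinds of cell was therefore not settled at this depth. The deleted part of the gene is not given in the labels, so these reads do not check the genotype by themselves.

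Of the partners of the enzyme, Pik3r5, the p101 regulatory subunit, was in 27 cells at 55.1 ± 51.0 CPM in KO and 95.3 ± 48.5 CPM in WT mice, and Pik3r6, the p84 subunit, in 12 cells at 24.0 ± 25.3 CPM in KO and 31.0 ± 29.2 CPM in WT mice (SD, n = 3 each). Pik3cd, which encodes the delta catalytic subunit, was in 45 cells at 215 ± 51.0 CPM in KO and 183 ± 75.4 CPM in WT mice (SD, n = 3 each). Inpp5d, the phosphatase SHIP1, was in 48 cells. Of the 12 PI3K genes, 2 were high enough for the fit below and neither passed it.

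**Figure D4:**
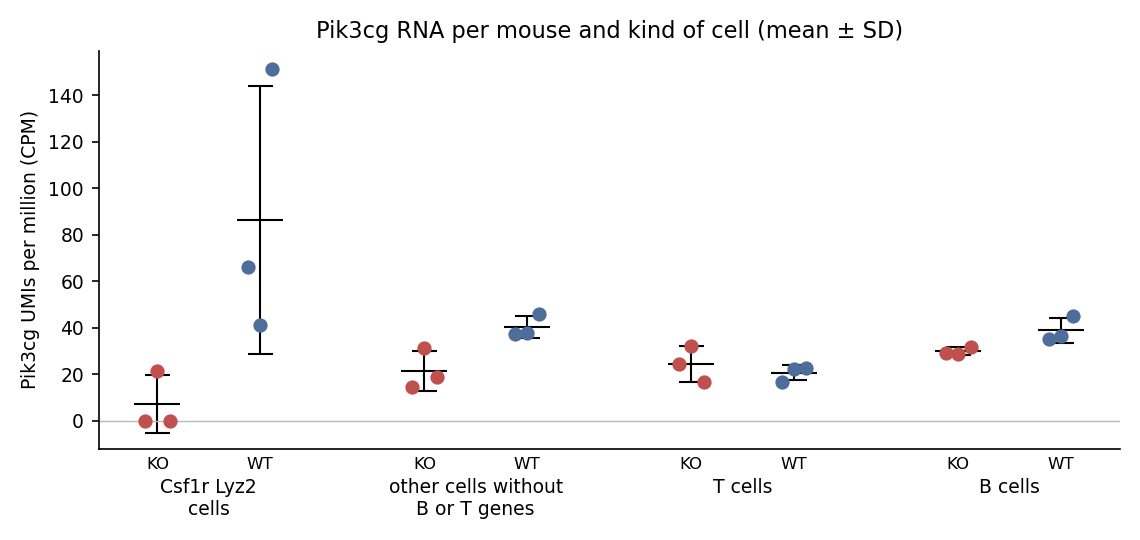
Pik3cg level in CPM (y axis) in each mouse (points; KO left, WT right of each pair) for 4 kinds of cell; horizontal marks are means and bars SD (n = 3 each), and the grey line is 0. In Csf1r Lyz2 cells 2 of the 3 KO mice are at 0.0 and the WT mice at 41.3 to 151, whereas in T cells the genotypes overlap.

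Gene levels were then compared between KO and WT with all 6 mice, which had 5 to 27 cells each. A fit restricted to mice with at least 10 cells, as first intended, would have kept only KO2 among the KO mice and was not made. Of 855 genes tested, edgeR's quasi-likelihood test called 1 (0.117%) at an adjusted p under 0.05. At an unadjusted p under 0.05 there were 58 (6.78%), and 114 (13.3%) did not overlap between the genotypes on the fit's TMM-scaled values. DESeq2 also called 1 gene, the same. In simulated data of this size, 41.5% of genes changed 2-fold and 95% of genes changed 4-fold were recovered. There 200 of the 855 genes were changed, which makes the adjusted threshold easier to pass than where few genes change. These shares therefore do not give the recovery in the real fit, which called 1 gene.

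The gene called was Wfdc17 (GRCm38 chromosome 11, 83703991 to 83706268, plus strand), which encodes a secreted protein of activated macrophages and microglia. It had 1636, 2368 and 1411 CPM in KO1, KO2 and KO3, against 721, 441 and 734 CPM in WT1, WT2 and WT3. Every KO mouse was above every WT mouse. It rose by 1.62 on the log2 scale (SE 0.24), with an edgeR adjusted p of 0.00736. Without WT1, WT2 or WT3 the edgeR adjusted p was 0.0793, 0.0532 and 0.0624. It was 0.316 with lane 1 alone and 0.354 among cells with at least 3 of the 7 genes, and in 9 of the 14 alternatives it was under 0.05. The 9 include the alternatives without Scrublet calls and without cells with a contig, which kept the same 91 cells and so repeated the main fit. The log2 fold change ran from 1.29 to 1.72.

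Wfdc17 also varied among the sets of cells, with 1483 CPM in the F13a1, Fn1 or Chil3 set and 436 CPM in the Ear2, Treml4, Eno3 or Cd300e set. Within the F13a1, Fn1 or Chil3 set it had 1722, 2574 and 1545 CPM in KO1, KO2 and KO3 (6, 8 and 3 cells), against 994, 932 and 1216 CPM in WT1, WT2 and WT3 (11, 4 and 8 cells). The genotypes did not overlap within that set. This is a description only, because Wfdc17 was picked by its p in these same cells and the set was drawn after the values were seen. Ccl6 overlapped within that set, with 847 to 1459 CPM in the KO mice and 155 to 881 CPM in the WT mice. In all other members Wfdc17 had 638, 1840 and 0.0 CPM in the KO mice, where 1, 4 and 2 cells contributed, against 497, 263 and 434 CPM in the WT mice, and there the genotypes overlapped.

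The next 5 genes by p did not pass. Ccl6, which lies near Wfdc17 on chromosome 11 (83587882 to 83593087, minus strand), had 780, 1033 and 1333 CPM in the KO mice and 398, 303 and 594 CPM in the WT mice (log2 difference 1.26, SE 0.28; adjusted p = 0.191 by edgeR). Ly86, which encodes MD-1, the partner of the Toll-like receptor relative RP105, had 808 ± 173 CPM in KO and 447 ± 19.1 CPM in WT mice (SD, n = 3 each; edgeR adjusted p = 0.290). Mndal, an interferon-inducible gene of the Ifi200 family, had 406 ± 171 CPM in KO and 169 ± 45.9 CPM in WT mice (SD, n = 3 each; edgeR adjusted p = 0.365). Cmss1 and Cdk8 were found in over 95% of both Csf1r Lyz2 cells and T cells and had edgeR adjusted p-values of 0.290 and 0.365. In CPM the genotypes overlapped for Cmss1 and for Cdk8, where KO2 (6243 CPM) lay below WT2 (6652 CPM), and not for Ly86 and Mndal. For Ccl6 they did not overlap over all members, but they did within the F13a1, Fn1 or Chil3 set.

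**Figure D5:**
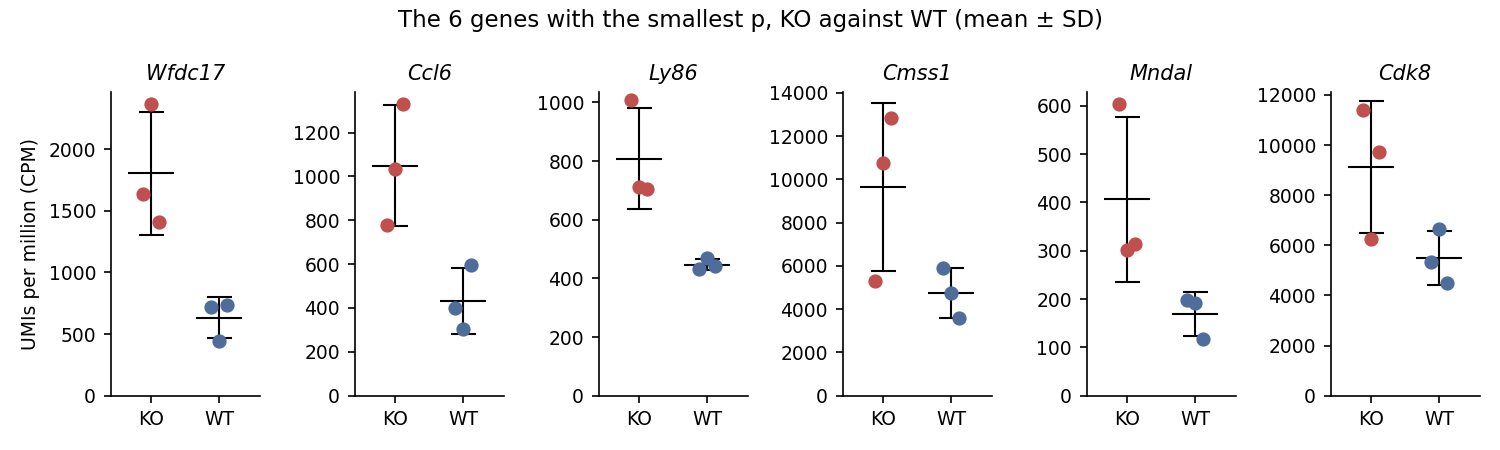
Level in CPM (y axis) in the Csf1r Lyz2 cells of each mouse (points; KO left, WT right) for the 6 genes with the smallest p; horizontal marks are means and bars SD (n = 3 each). Wfdc17, with all KO mice at 1411 or more and all WT mice at 734 or less, is the gene past the adjusted threshold.

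The gene lists gave no further call at an adjusted p under 0.05. Among all 855 genes, 33 were higher and 25 lower in KO at an unadjusted p under 0.05, and the median log2 fold change was 0.00047. Of 20 general myeloid genes tested, 1 was higher (Cybb) and 5 lower (Cst3, Lst1, Cyba, Sirpa and Clec4a1), with a median of 0.0060. Sirpa, the receptor of the signal CD47, had 252, 452 and 235 CPM in the KO mice and 555, 592 and 571 CPM in the WT mice (edgeR adjusted p = 0.662). The 13 lysosomal genes had 1 higher (Npc2), 0 lower and a median of 0.10. The 13 stress genes had 2 higher (Fos and Dusp1) and 1 lower (Hspa1a), with a median of 0.46. Of 6 class II genes 0 were past the unadjusted threshold, with a median of -0.46. Both chemokines tested, Ccl6 and Cxcl10, were higher at that threshold.

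KO1 stood highest for Cxcl10, Isg15 and the summed interferon-stimulated list. Cxcl10, an interferon-induced chemokine, had 1812, 43.1 and 706 CPM in KO1, KO2 and KO3, against 215, 151 and 69.9 CPM in WT1, WT2 and WT3. Isg15, a ubiquitin-like interferon-stimulated protein, had 2265, 86.1 and 235 CPM in the KO mice and 232, 455 and 280 CPM in the WT mice. KO1 was the highest mouse for both and KO2 the lowest. The chemokine list, which holds Cxcl10, summed to 5386, 1485 and 3057 CPM in KO1, KO2 and KO3. In WT1, WT2 and WT3 it summed to 1044, 964 and 1235 CPM, so every KO mouse lay above every WT mouse. That sum was not tested. The interferon-stimulated list summed to 12282, 4887 and 5487 CPM in KO1, KO2 and KO3 and to 6373, 6197 and 6849 CPM in the WT mice, so 2 of the 3 KO mice lay below all WT mice. Apoe, a lipid carrier, ran the other way among KO mice, with 780, 2002 and 3998 CPM in KO1, KO2 and KO3 and 887, 992 and 955 CPM in the WT mice.

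B cell receptor libraries from the same lanes, which the choice of cells did not use, held a productive contig for 0 of the 91 cells, which allows a share of up to 3.30%. Of T cells 8 of 3691 (0.217%) had one, and of B cells 76.5%. The difference from T cells was -0.234 percentage points. With 0 contigs in every mouse its sign was fixed, so its p is not given, and the share in T cells is far under the limit that the count of 0 allows: a difference was not detectable at this depth.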

How the data were processed

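Gene expression, B cell receptor and hashtag libraries of 6 mice were measured on 2 droplet lanes. The authors deposited raw counts of UMIs per gene and barcode and per receptor contig, which per the file headers come from Cell Ranger 7.0.1 and per the submitters' processing notes from mm10. The hashtag table is of another kind: the authors' deposited calls as text (a single hashtag, several or none), for which no rule is stated in the labels. Depth was 36704676 and 39581727 UMIs per lane, and the Csf1r Lyz2 cells of a mouse held 12757 to 46451 UMIs in KO and 72613 to 120673 UMIs in WT mice.

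Of 23516 barcodes, 19270 (81.9%) carried a single hashtag, and 19230 passed the filters (at least 500 UMIs, at most 10% mitochondrial UMIs). T cells had no Cd79a UMI and at least 2 Cd3 UMIs, and B cells at least 2 Cd79a UMIs and no Cd3 UMI. Scrublet in scanpy 1.11.5 marked 140 cells (0.728%), with 0 among the Csf1r Lyz2 cells; its calls were not removed. Barcodes with several hashtags were left out. The mouse was the replicate, lanes were summed, and mice were numbered within a genotype in hashtag order. CPM scales the UMIs of the same cells to 1000000.

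Shares and single values were compared with two-sided exact permutation tests over the 20 assignments of 6 mice. Counts summed per mouse were fitted with edgeR 4.0.16 (quasi-likelihood, TMM, filterByExpr, two-sided, Benjamini-Hochberg; SE from the log2 fold change and the F statistic), with DESeq2 1.42.0 as an alternative. The fit was tested on simulated data with 200 changed genes. Genes named were those of the choice, Pik3cg, the listed genes, the 30 with the highest ratio to all other cells (1 CPM added; a UMI in at least 20% of members), and the 6 with the smallest p. Members and lists were chosen with earlier results of these data known. Clec7a and Mx1 had no row. Coordinates are from GENCODE vM21 (GRCm38).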

Additional observations from a re-analysis of the deposited data

Results flagged for a closer look

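Barcodes with several hashtags belong to no mouse and entered no comparison, but some carried the same genes. Of 106 barcodes that met the rest of the choice, 10 had several hashtags, a share of 9.43% (exact binomial 95% interval 4.62% to 16.7%), and 5 had none. Among barcodes that met the T cell definition the share with several hashtags was 9.34%, and among those that met the B cell definition 15.6%.

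C1q RNA was seen mostly outside the Csf1r Lyz2 cells. Of 109 barcodes with a UMI of C1qa, C1qb or C1qc, 52 (47.7%) had several hashtags, against 16.6% of all barcodes. A Cd79a UMI was in 78 (71.6%), close to its share in all barcodes (75.4%). Several hashtags were also common among barcodes with a Ly6c2 or F13a1 UMI and at least 2 of the 7 genes (52 of 133, 39.1%). The high share was thus not particular to C1q. Only 7 of the 109 were among the 91 Csf1r Lyz2 cells. Of 27 barcodes with at least 2 of the C1q genes, 17 had several hashtags, 20 (74.1%) had a Cd79a UMI and 2 were among the 91.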

How the results depend on the processing

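The KO minus WT difference in the share of cells was -0.432 percentage points of single-hashtag cells and ran from -0.520 to -0.352 when each mouse was left out. Among cells without B or T cell genes it was -5.48 and ran from -6.64 to -4.47. The Pik3cg difference was -79.2 CPM and ran from -102 to -46.6. These 3 kept their direction in the alternatives run. Of the gates, none of which passed the test, 3 turned round. The C1q difference of 6.96 percentage points was -5.25 with lane 2 alone and ran from -6.37 to 13.6 without each mouse. The monocyte gate difference of -1.73 was 7.70 after thinning to 1000 UMIs, 7.47 with lane 2 alone and -8.40 to 11.6 without each mouse. The non-classical difference of -23.2 was 3.81 with lane 2 alone and -38.1 to -6.45 without each mouse, whereas the neutrophil difference of -2.57 did not turn round, was 0.0 after the same thinning and ran from -3.85 to -1.85 without each mouse. The contig difference of -0.234 was -0.100 with lane 1 alone and -0.256 among cells with 2000 to 8000 UMIs, and ran from -0.260 to -0.210 without each mouse; its sign was fixed by the 0 contigs, so its p says nothing of stability. The number of genes called by edgeR, 1, was 9 with no filter on low counts, 5 with lane 2 alone, 0 with lane 1 alone and 0 with at least 3 of the 7 genes. It was 4 without KO1, 14 without KO2, 1 without KO3 and 0 without WT1, WT2 or WT3, a range of 0 to 14; the cause was not tested. Removing cells marked by Scrublet or with a contig left the same 91 cells. The comparison of all 6 mice, the T cell denominator, the non-classical gate and the Pik3cg alternatives were added after the data were seen. No paired analysis was possible because the hashtag table does not number the mice within a genotype. In KO mice depth limits all gene values, since KO3 rests on 5 cells.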
